A study of Mus musculus with 11 samples.

Results

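DNA replication and mitosis genes, the usual transcriptional marks of dividing cells, were followed in the main olfactory epithelium (MOE) of newborn mice with and without Bcl11b. The genes were 43 in number, 16 for DNA replication and 27 for mitosis, and each was read through every probe set that the array annotation assigned to it alone. Of these, 42 could be tested, among 15133 genes in all with a tested probe set of their own. Their probe sets were 99 of the 45101 on the array, of which 86 passed a filter on dim signals and 13 did not. The 42 were all 16 replication genes and 26 mitosis genes. Ccnb1, a mitotic cyclin, had no probe set naming it alone and was not analysed here.

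The study asked how the transcription factor Bcl11b shapes the class of odorant receptor that olfactory sensory neurons (OSNs) express. Whole MOE was dissected at postnatal day 0 as 5 WT and 6 Bcl11b KO preparations, all of the BALB/c strain. The KO was a conventional one, lacking functional Bcl11b in every cell of the body rather than in 1 cell type, and all WT and 4 KO preparations were male, whereas KO 3 and KO 6 were female. RNA from each preparation was amplified in a pair of cycles and hybridized to 1 expression array, and the labels gave neither litter nor day of dissection. The Bcl11b signal lay between 2694.3 and 4122.7 on the WT arrays and between 560.5 and 1249.8 on the KO arrays, a log2 change of −1.88 ± 0.17 (SE, n = 5 WT and 6 KO arrays; limma adjusted p = 1.2e-05), so the arrays followed their labels. Here and below, signals are GAPDH-scaled intensities with no unit, and changes are KO minus WT on the scale log2(signal + 16).

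In a dividing cell, replication genes are switched on at the passage from G1 to S phase, largely through E2F transcription factors, and their products license origins, unwind DNA and supply nucleotides. Mitosis genes follow in G2 and M phase, largely through the promoter element called the cell cycle genes homology region (CHR), which works together with nearby CCAAT boxes bound by NF-Y. In the olfactory epithelium, globose basal cells divide throughout life and give rise to neuronal precursors and then to OSNs, while horizontal basal cells are mostly at rest. Whole MOE mixes all of these with supporting cells, glia, blood and connective tissue. The arrays do not say which cells the RNA came from, and fewer cells of a type and less RNA per cell cannot be told apart.

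The promoters of both gene groups are shown because they carry the elements that set the groups apart. Promoter windows of 300 bases, 250 before to 50 after the annotated start, came from RefSeq on build GRCm38.p6 and were found for 36 of the 43 genes, 13 for replication and 23 for mitosis. For 3 genes of each group the 150 bases before the start follow, in the direction of transcription, with matches in capitals. These matches are the E2F letters TTTCGCGC, TTTGGCGC or TTTCCCGC, the CHR letters TTTGAA and the NF-Y box CCAAT, each also as its reverse complement.

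Mcm5 (chr8:75109359-75109508, plus strand): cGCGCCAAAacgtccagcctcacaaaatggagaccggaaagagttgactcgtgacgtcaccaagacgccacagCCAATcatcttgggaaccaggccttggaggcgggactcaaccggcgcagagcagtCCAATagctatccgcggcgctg
Mcm6 (chr1:128359706-128359855, minus strand): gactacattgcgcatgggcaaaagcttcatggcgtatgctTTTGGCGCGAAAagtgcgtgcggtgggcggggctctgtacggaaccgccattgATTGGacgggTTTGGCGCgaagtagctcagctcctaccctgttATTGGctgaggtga
Mcm2 (chr6:88898781-88898930, minus strand): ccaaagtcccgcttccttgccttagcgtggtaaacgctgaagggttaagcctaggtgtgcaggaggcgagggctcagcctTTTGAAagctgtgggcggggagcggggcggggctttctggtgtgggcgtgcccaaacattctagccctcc
Cdk1 (chr10:69352913-69353062, minus strand): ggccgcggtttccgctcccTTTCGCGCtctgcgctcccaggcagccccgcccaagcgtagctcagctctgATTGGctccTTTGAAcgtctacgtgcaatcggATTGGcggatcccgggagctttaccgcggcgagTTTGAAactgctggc
Cdc20 (chr4:118437344-118437493, minus strand): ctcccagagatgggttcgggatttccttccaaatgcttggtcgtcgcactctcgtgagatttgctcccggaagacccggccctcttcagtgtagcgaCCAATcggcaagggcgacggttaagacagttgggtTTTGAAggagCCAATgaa
Mki67 (chr7:135716380-135716529, minus strand): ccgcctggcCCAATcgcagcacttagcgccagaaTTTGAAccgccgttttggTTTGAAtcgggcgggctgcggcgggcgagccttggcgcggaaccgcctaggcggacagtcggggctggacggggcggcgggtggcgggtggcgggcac

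In the Mcm6 promoter the upstream run of capitals holds an E2F match on each strand, and these overlap by 4 bases. Mcm2 held the CHR letters in place of the E2F letters, and Cdk1 held all the elements. Over the whole windows, the E2F letters occurred in 6 of 13 replication genes (46.2%: Mcm3, Mcm5, Mcm6, Mcm7, Cdt1 and Cdc6), in 1 of 23 mitosis genes (4.35%: Cdk1) and in 2.12% of 27025 genes with a window. The CHR letters occurred in 1 replication gene (7.69%), in 17 mitosis genes (73.9%) and in 20.2% of all genes. The NF-Y box occurred in 8 replication genes (61.5%), in 20 mitosis genes (87.0%) and in 41.1% of all genes. All 17 mitosis genes with the CHR letters also held an NF-Y box, a combination found in 8.97% of all genes. A match is only a string of letters in a window, and a window without one says nothing of the factor.

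**Figure D1:**
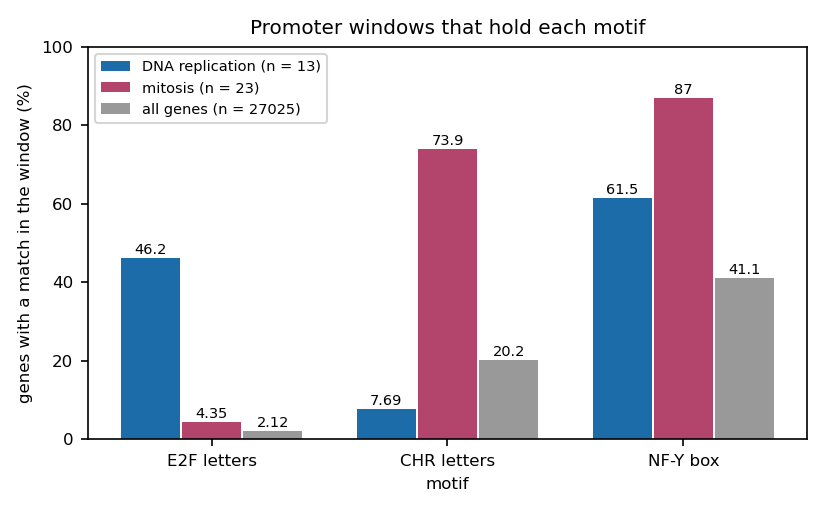
Share of genes (%, vertical axis) whose 300-base promoter window holds the E2F letters, the CHR letters or the NF-Y box, for 13 replication genes, 23 mitosis genes and all 27025 genes with a window. The E2F letters stand at 46.2% of replication genes against 4.35% of mitosis genes, and the CHR letters at 73.9% of mitosis genes against 7.69% of replication genes.

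Loss of Bcl11b was not accompanied by a detected change in any single one of these genes. None of the 42 passed the limma test at an adjusted p of 0.05 over all 33662 probe sets tested, where 0.244% of all probe sets were called higher and 0.211% lower. The adjusted p-values ran from 0.724 for Tpx2 to 0.998 for E2f1. At an unadjusted p of 0.05 limma called 0 of the 42, against 6.92% of all probe sets in either direction. In no gene were the arrays of the WT and KO groups apart, against 1.29% of all probe sets. Every 95% interval lay within a 2-fold change either way, the lowest bound being −0.73 for Ccne1 and the highest 0.86 for Mcm2. The same held for 31834 of the 33662 probe sets tested, so it does not mark these genes. Changes beyond 2-fold were thus outside the intervals of all 42 genes, while smaller ones lay within them.

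Estimates were above 0 in 37 of the 42 genes under the authors' GAPDH scaling, against 60.4% of all probe sets, and in 8 of the 42 when arrays were scaled to their hybridization controls instead. The median change was 0.15 over the 42 genes and 0.047 over all probe sets. By group the median was 0.16 in the replication genes, with 15 of 16 above 0, and 0.12 in the mitosis genes, with 22 of 26 above 0. Under the hybridization controls the median of all probe sets moved to −0.13. Relative to the median of all probe sets, the mean of the replication genes lay between 0.074 and 0.088 and that of the mitosis genes between 0.033 and 0.051 over the 4 scalings tried.

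**Figure D2:**
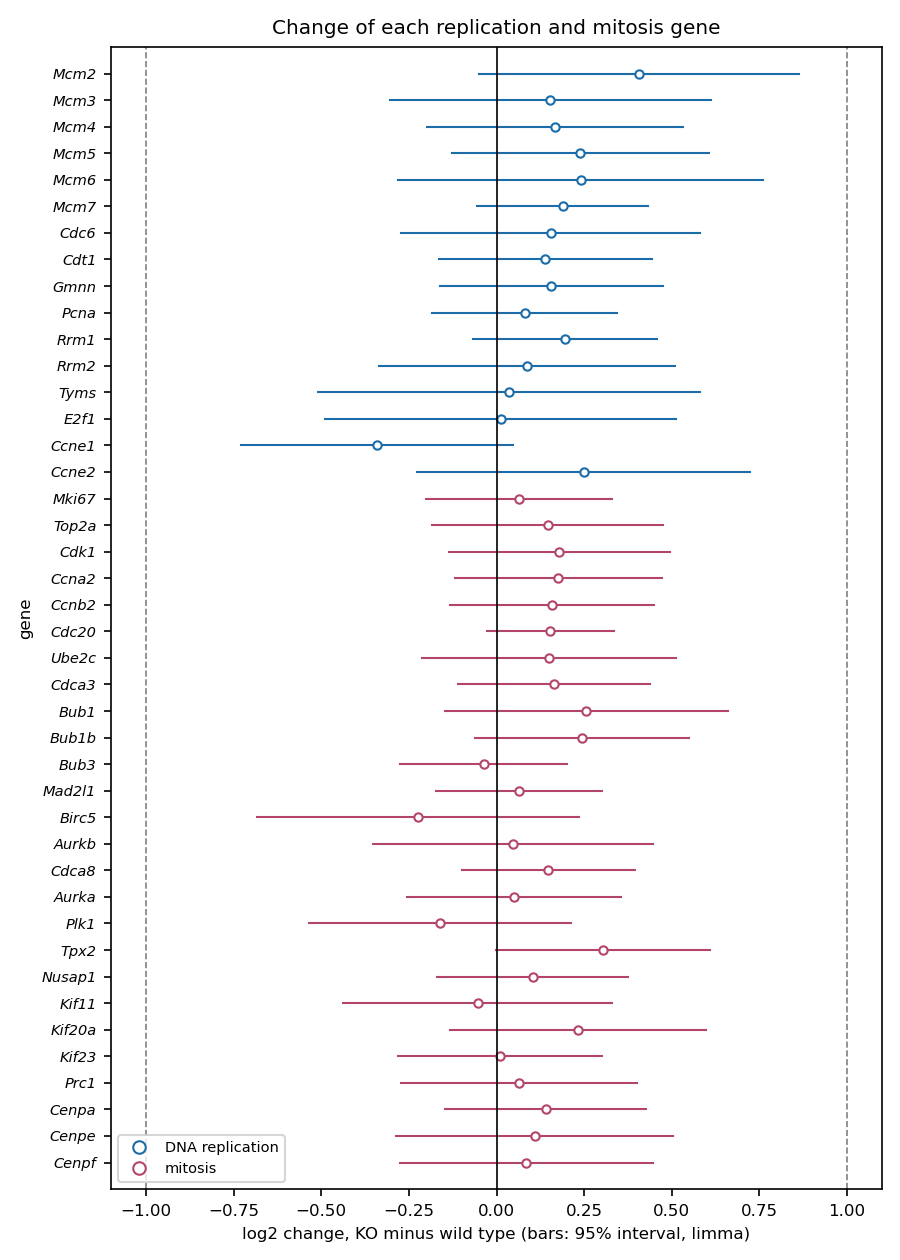
Log2 change of each gene, KO minus WT, under GAPDH scaling (horizontal axis; points are estimates, bars 95% intervals from limma, 5 WT and 6 KO arrays), with replication genes in blue and mitosis genes in red and dashed lines at a 2-fold change. All bars lie inside the dashed lines, and 37 of the 42 estimates lie above 0, a number that fell to 8 under hybridization control scaling.

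Among the replication genes, Mcm2 to Mcm7 encode the subunits of the helicase that unwinds DNA at the fork. All 6 had estimates above 0 under GAPDH scaling, between 0.15 for Mcm3 and 0.41 for Mcm2, and 0 passed the limma test. Mcm2 read 655.4, 687.5, 484.8, 377.6 and 546.0 on WT 1 to WT 5, and its lowest, median and highest KO signals were 529.1, 615.3 and 1212.0. KO 4 and KO 6 lay above every WT array and the other 4 KO arrays lay inside the WT range, so the groups overlapped. The log2 change of Mcm2 was 0.41 ± 0.22 (SE, n = 5 and 6; limma adjusted p = 0.806), its slightly dimmer probe set gave 0.16 and the mean of both 0.28. Mcm7 read 2778.0, 3218.0, 2851.8, 2464.3 and 2806.4 on WT 1 to WT 5, and 2367.0, 3316.8 and 3861.0 as the lowest, median and highest KO signals. Here KO 2 lay below every WT array and the other 5 KO arrays lay above every WT array, KO 5 by less than 1 signal unit. The change of Mcm7 was 0.19 ± 0.12 (SE). Mcm5 and Mcm6, whose promoters hold E2F letters, had changes of 0.24 ± 0.17 and 0.24 ± 0.25 (SE), and their KO signals spanned 1045.2 to 2108.7 and 447.1 to 1307.6.

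Cdc6 and Cdt1 load the helicase on origins and geminin, the product of Gmnn, holds Cdt1 in check. Their changes were 0.15 ± 0.20, 0.14 ± 0.15 and 0.16 ± 0.15 (SE). Pcna, the sliding clamp that keeps polymerases on DNA, read 3387.2, 3973.6, 4307.8, 3696.6 and 3734.7 on WT 1 to WT 5, with lowest, median and highest KO signals of 3111.6, 4186.9 and 5037.8. The KO arrays lay on both sides of the WT range: KO 1, KO 4 and KO 6 were above it, KO 2 and KO 3 below it and KO 5 inside it. The change of Pcna was 0.080 ± 0.13 (SE).

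Rrm1 and Rrm2 encode the subunits of ribonucleotide reductase, which makes deoxyribonucleotides, and Tyms makes thymidylate. Rrm1 read 1124.7, 1423.8, 1194.3, 1042.5 and 1246.3 on WT 1 to WT 5, and 1142.5, 1364.9 and 1607.3 as the lowest, median and highest KO signals. KO 1, KO 4 and KO 6 again lay above the WT range and the other 3 KO arrays lay inside it, with a change of 0.19 ± 0.12 (SE). Rrm2 and Tyms had changes of 0.087 ± 0.20 and 0.036 ± 0.26 (SE), and Tyms was dim, with a mean signal of 40.4 on the WT arrays.

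The genes of S phase entry did not share a direction. Cyclins E1 and E2, from Ccne1 and Ccne2, drive Cdk2 at the start of S phase, and E2f1 is itself one of the E2F factors. Ccne1 was the only replication gene with an estimate below 0. It read 470.3, 607.6, 560.1, 394.2 and 420.8 on WT 1 to WT 5, and its lowest, median and highest KO signals were 289.4, 375.7 and 612.4. KO 1 to KO 5 lay below every WT array and KO 6 lay above every WT array. The change was −0.34 ± 0.18 (SE, n = 5 and 6; limma adjusted p = 0.813), and the dimmer probe set of Ccne1 gave −0.053 ± 0.19. Ccne2 and E2f1 had changes of 0.25 ± 0.23 and 0.012 ± 0.24 (SE), and the dimmer tested probe set of E2f1 gave −0.11.

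Among the mitosis genes, Mki67 encodes the chromosome coat protein Ki-67 and Top2a the topoisomerase that untangles sister chromatids. Mki67 read 2416.8, 2718.2, 2314.2, 2253.4 and 2965.5 on WT 1 to WT 5, and 2005.9, 2600.6 and 3292.3 as the lowest, median and highest KO signals. Top2a read 1800.5, 1974.9, 1541.0, 1500.5 and 1811.0 on the WT arrays, and 1278.5, 1942.7 and 2572.4 as the lowest, median and highest KO signals. In both genes KO 1 and KO 4 lay above the WT range and KO 2 below it, and in Top2a KO 6 also lay above it. Their changes were 0.064 ± 0.13 for Mki67 and 0.15 ± 0.16 for Top2a (SE). The dimmer tested probe set of Top2a gave −0.057, and the mean of its tested probe sets 0.044.

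Cdk1 is the kinase of mitotic entry, and cyclins A2 and B2, from Ccna2 and Ccnb2, are among its partners. Cdk1 read 893.4, 1137.4, 961.3, 924.8 and 956.4 on WT 1 to WT 5, and 774.8, 1204.9 and 1395.6 as the lowest, median and highest KO signals. KO 1, KO 4, KO 5 and KO 6 lay above the WT range, KO 3 inside it and KO 2 below it. The changes of Cdk1, Ccna2 and Ccnb2 were 0.18 ± 0.15, 0.18 ± 0.14 and 0.16 ± 0.14 (SE).

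Cdc20 activates the anaphase-promoting complex, Ube2c is its ubiquitin-conjugating enzyme, and Cdca3 works in the degradation of mitotic inhibitors. Cdc20 read 2602.5, 2879.4, 3027.0, 2703.5 and 2903.5 on WT 1 to WT 5, and 2934.0, 3122.2 and 3345.2 as the lowest, median and highest KO signals. All KO arrays but KO 5 lay above every WT array, and KO 5 lay below WT 3 alone. The change of Cdc20 was small, 0.15 ± 0.086 (SE, n = 5 and 6; limma adjusted p = 0.834), and it was 1 of only 2 genes, with Cdca3, that varied less over the KO than over the WT arrays. Its dimmer probe sets gave 0.016 and −0.044, and the mean of its probe sets 0.042. Cdca3 and Ube2c had changes of 0.16 ± 0.13 and 0.15 ± 0.17 (SE).

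Bub1, Bub1b, Bub3 and Mad2l1 belong to the spindle checkpoint, which delays anaphase until chromosomes are attached. Bub1b read 640.1, 714.1, 596.2, 555.3 and 657.5 on WT 1 to WT 5, and 520.7, 763.2 and 910.4 as the lowest, median and highest KO signals. As for Mcm7, KO 2 lay below every WT array and the other 5 KO arrays above every WT array. The change was 0.24 ± 0.15 (SE) for Bub1b, against 0.26 ± 0.19 for Bub1, 0.064 ± 0.11 for Mad2l1 and −0.037 ± 0.11 for Bub3. The other tested probe set of Bub1b gave 0.082.

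Aurkb, Birc5 and Cdca8 form part of the chromosomal passenger complex, which corrects wrong attachments, and Aurka and Plk1 are kinases of the centrosomes and spindle. The changes of Aurkb, Birc5 and Cdca8 were 0.047 ± 0.19, −0.22 ± 0.22 and 0.15 ± 0.12 (SE). The changes of Aurka and Plk1 were 0.049 ± 0.15 and −0.16 ± 0.18 (SE). In Birc5 and Plk1 the lowest signals, 241.7 and 243.0, were both from KO 3, against WT means of 559.8 and 415.7.

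Tpx2 activates Aurka on the spindle, and Nusap1 bundles spindle microtubules. Tpx2 read 387.8, 542.7, 466.8, 450.2 and 469.4 on WT 1 to WT 5, and 430.2, 599.4 and 684.9 as the lowest, median and highest KO signals. KO 1, KO 3, KO 4 and KO 6 lay above every WT array and KO 2 and KO 5 inside the WT range. Its change, 0.30 ± 0.15 (SE, n = 5 and 6; limma adjusted p = 0.724), had the smallest p of all 42 genes, but the 3 dimmer probe sets of Tpx2 gave 0.28, 0.082 and −0.33, so the probe sets of this gene did not share a direction. Nusap1 had a change of 0.10 ± 0.13 (SE).

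The kinesins Kif11, Kif20a and Kif23 and the microtubule bundler Prc1 build the spindle and its midzone, and Cenpa, Cenpe and Cenpf act at the centromere. Kif20a read 166.3, 195.7, 139.7, 142.1 and 184.6 on WT 1 to WT 5, and 140.6, 199.2 and 262.8 as the lowest, median and highest KO signals. KO 1, KO 4 and KO 5 lay above the WT range and the other 3 KO arrays inside it, with a change of 0.23 ± 0.17 (SE). The remaining changes in these genes ran from −0.054 ± 0.18 for Kif11 to 0.14 ± 0.14 for Cenpa (SE). The dimmer probe sets of Kif11 gave 0.17 and 0.27, so its probe sets did not share a direction.

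**Figure D3:**
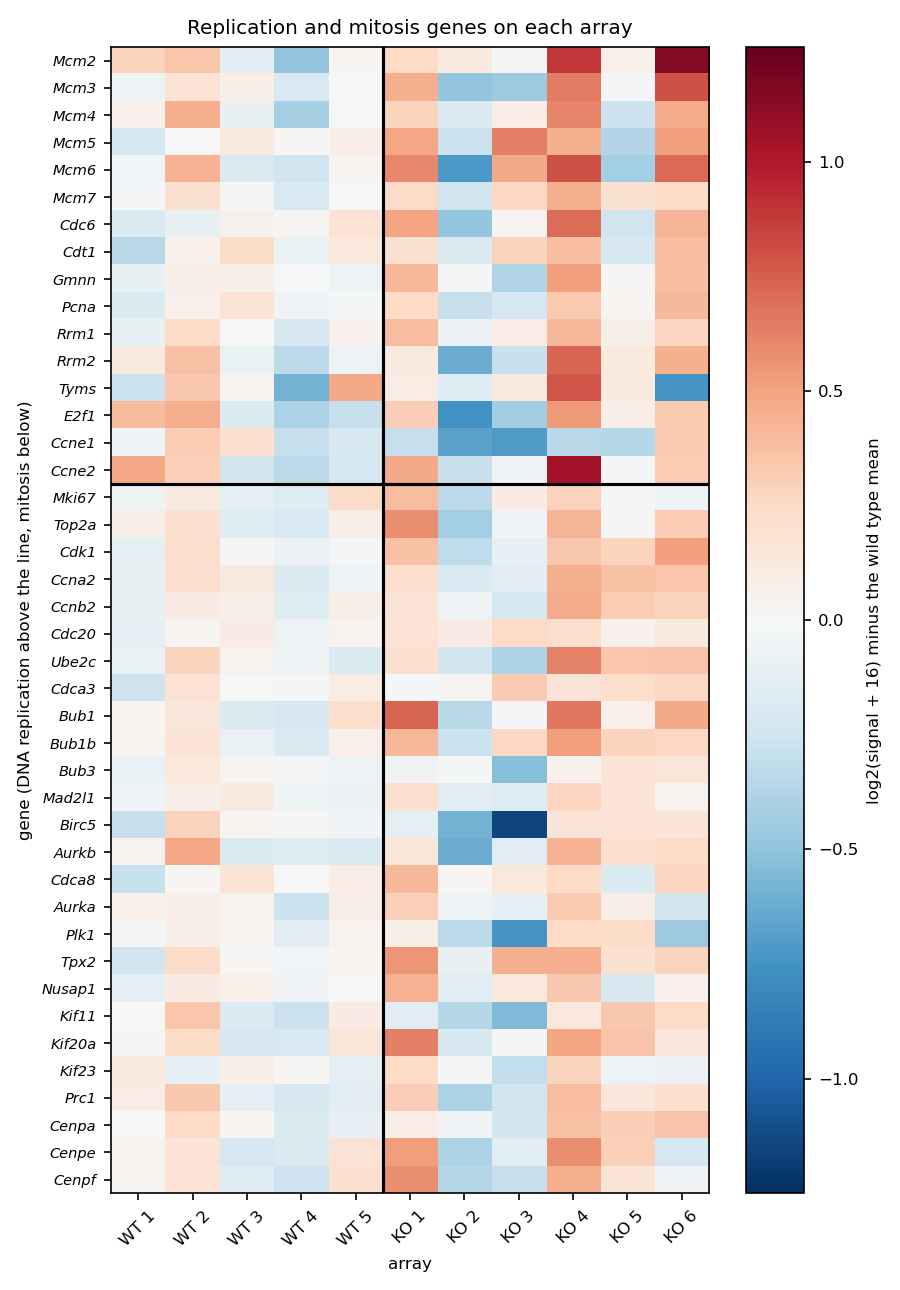
Log2(signal + 16) of each of the 42 genes (rows, replication above the horizontal line and mitosis below) on each of the 11 arrays (columns, WT left of the vertical line), minus the gene's WT mean, with red above and blue below it. KO 4 is red for 15 of 16 replication genes and all 26 mitosis genes, whereas KO 2 is blue for all but 1 replication gene and 3 mitosis genes.

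The KO arrays were more spread than the WT arrays in most of these genes. The SD over KO arrays exceeded that over WT arrays in 40 of the 42 genes, against 65.8% of all probe sets and 71.9% of the brightest probe sets of all 15133 genes. The median SD of the log2 values was 0.167 over WT and 0.329 over KO arrays in these genes, against 0.252 and 0.318 over all probe sets and 0.211 and 0.293 over the brightest of every gene. Replication genes had median SDs of 0.240 and 0.450, and mitosis genes 0.166 and 0.272, so the KO median was above that of all probe sets in the replication genes and below it in the mitosis genes. No test was made of these spreads, since genes measured on the same arrays share their deviations.

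Single KO arrays carried most genes of a group to the same side. Of the 16 replication genes, 15 lay above their WT mean on each of KO 1, KO 4 and KO 6, against 8 on KO 3, 8 on KO 5 and 1 on KO 2. Of the 26 mitosis genes, 22 lay above on KO 1, 26 on KO 4, 22 on KO 5 and 20 on KO 6, against 7 on KO 3 and 3 on KO 2. Over all probe sets the shares above were 59.8%, 42.4%, 35.3%, 75.0%, 68.1% and 63.3% on KO 1 to KO 6. The WT arrays differed too: WT 2 was the highest WT array for 10 replication and 18 mitosis genes, and WT 4 the lowest for 11 and 12. Of all probe sets, 80.7% lay above their WT mean on WT 2 and 13.0% on WT 4, so these arrays stood apart beyond these genes.

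The replication genes averaged 9.34 ± 0.165 on WT and 9.48 ± 0.336 on KO arrays (SD of log2 values, n = 5 and 6), a change of 0.14. Relative to the WT mean, the KO arrays stood at 0.30, −0.33, −0.035, 0.56, −0.077 and 0.40 from KO 1 to KO 6, and the WT arrays between −0.23 and 0.23. The mitosis genes averaged 9.61 ± 0.112 on WT and 9.71 ± 0.235 on KO arrays (SD), a change of 0.099. Their KO arrays stood at 0.29, −0.22, −0.15, 0.36, 0.17 and 0.15, and the WT arrays between −0.12 and 0.18. In both groups of genes the WT and KO arrays overlapped and the change was smaller than the SD of the KO arrays. The changes became −0.058 and −0.099 under hybridization control scaling.

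Replication genes were then set against mitosis genes on the same arrays. The replication mean minus the mitosis mean was −0.27 ± 0.067 on WT and −0.23 ± 0.187 on KO arrays (SD), a change of 0.036 that was smaller than either SD. With the 9 males alone the sign turned, to −0.036. Single KO arrays did diverge: relative to the WT mean this difference stood at −0.24 on KO 5, where the mitosis mean stood at 0.17 and the replication mean at −0.077, both inside the range of the WT arrays, and at 0.25 on KO 6 and 0.20 on KO 4. The WT arrays lay between −0.11 and 0.057. By role, the helicase genes had mean deviations of 0.64 on both KO 4 and KO 6 and of −0.14 on KO 5, and the cyclins and Cdk1 stood at 0.42, 0.38 and 0.32 on those arrays.

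**Figure D4:**
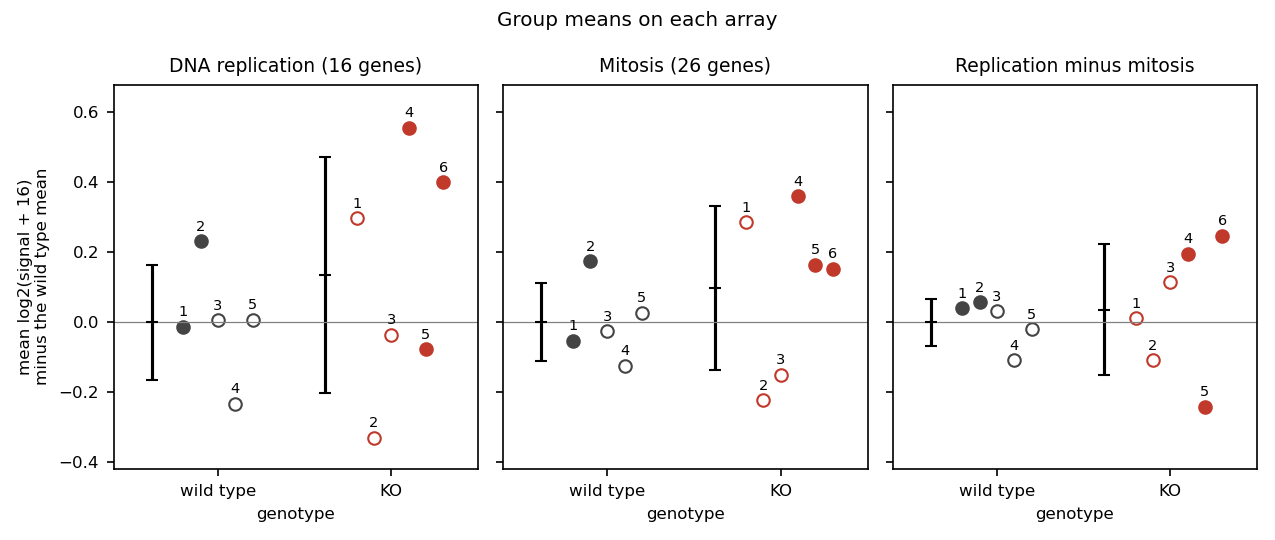
Mean log2(signal + 16) of 16 replication genes, of 26 mitosis genes and their difference on each array (vertical axis, relative to the WT mean; numbers are replicates, filled points the arrays of higher poly-A control signals, bars the mean ± SD of 5 WT and 6 KO arrays). KO arrays spread from −0.33 to 0.56 for replication genes and from −0.22 to 0.36 for mitosis genes, around WT arrays that lie between −0.23 and 0.23.

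Measures of the arrays moved with these values. The ratio of 3′ to 5′ GAPDH signal, which rises as RNA is degraded or shortened in amplification, was highest on KO 3 and KO 2, at 2.70 and 2.42, and lay between 1.82 and 2.27 on the other 9 arrays. KO 2 and KO 3 were also the KO arrays lowest in mitosis genes. The median signal of an array ran from 56.6 on WT 4 to 86.3 on KO 4, which were the lowest WT and the highest KO array for replication genes. With the GAPDH ratio as a covariate the changes of the replication and mitosis means were 0.17 and 0.13, and limma called 2 genes at an unadjusted p of 0.05. Over all probe sets, limma calls at an adjusted p of 0.05 were 129 higher and 92 lower with this covariate, against 82 and 71 without it. Their share at an unadjusted p of 0.05 is not given with this covariate, so nothing is read from the count of 2. Without KO 2 and KO 3, a selection made after seeing the data, the changes were 0.29 and 0.24 against 0.13 for the median of all probe sets, and 41 of the 42 genes had estimates above 0. At an unadjusted p of 0.05 limma then called 17 of the 42, against 13.9% of all probe sets, and 0 at an adjusted p of 0.05. Leaving out KO arrays that were low in these genes raises the estimates by construction, so nothing is read from these counts. When the arrays were scaled to their medians, the changes were 0.085 and 0.047. The spiked poly-A controls split the arrays into WT 1, WT 2, KO 4, KO 5 and KO 6, with higher signals, and the other 6. Changes within the higher arrays were 0.18 and 0.17, and within the lower ones 0.050 and 0.012, and with this split as a covariate they were 0.11 and 0.080. Sex was not shared evenly by the groups, and with males alone the changes were 0.11 and 0.15. The part of these measures in the results was not tested.

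**Figure D5:**
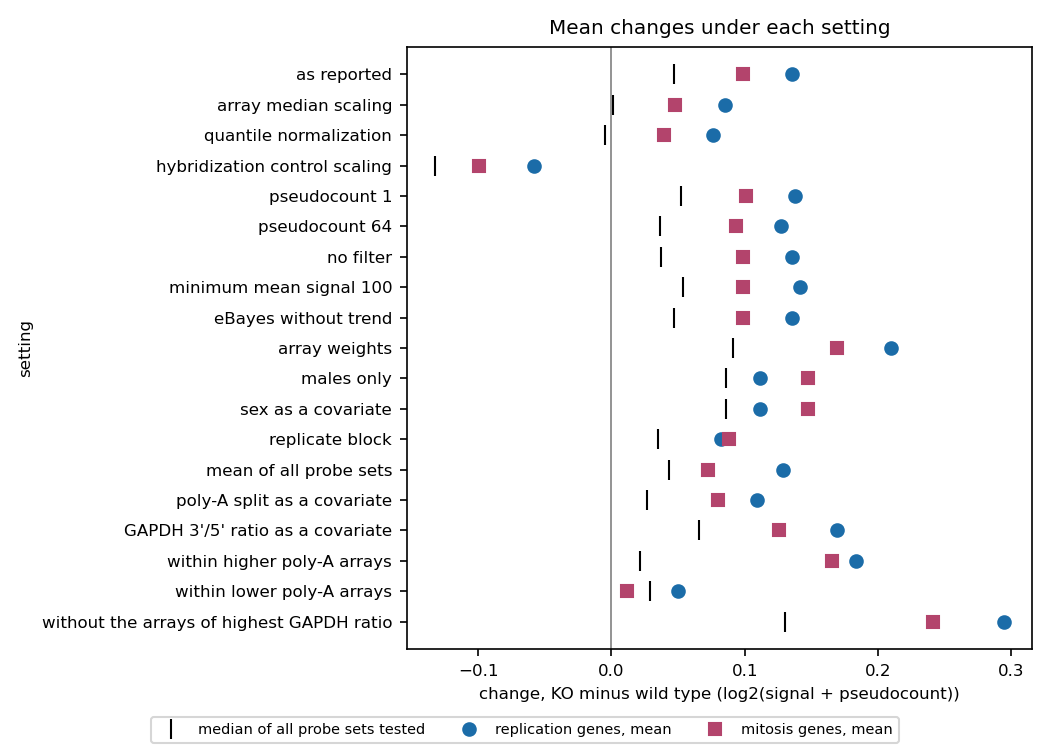
Mean change, KO minus WT (horizontal axis, log2 scale), of the replication genes (circles) and mitosis genes (squares) and the median of all probe sets tested (ticks) under each setting (rows). Both gene groups stay above 0 except under hybridization control scaling, at −0.058 and −0.099, where the median of all probe sets is −0.13.

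Further genes of the cycle were counted under GAPDH scaling, where 60.4% of all probe sets had estimates above 0 and 6.92% an unadjusted p under 0.05. Of 38 further replication factors, 30 had estimates above 0 with a median of 0.095, and 0 passed the limma test. Pold2, a subunit of DNA polymerase delta, had the smallest p, with a change of 0.34 ± 0.14 (SE; limma adjusted p = 0.619 with n = 5 and 6), and 1 of the 38 had an unadjusted p under 0.05. Of 44 further mitosis genes, 33 had estimates above 0 with a median of 0.074, and limma called 0 at either threshold. Ncaph, a condensin subunit, had a change of 0.28 ± 0.13 (SE). Of 17 E2F, Myb and FoxM1 regulators, 12 had estimates above 0 with a median of 0.091 and 0 passed, and E2f2 had a change of 0.35 ± 0.16 (SE). Of 10 G1 cyclins and kinases with their regulators, 8 had estimates above 0 and 0 passed, with Mycn, a transcription factor of growing progenitors, at 0.52 ± 0.22 (SE; limma adjusted p = 0.593, n = 5 and 6). At an unadjusted p of 0.05 limma called 1 of the regulators and 1 of the G1 genes.

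Inhibitors of the cycle had the highest median among the cell cycle lists, 0.23, with estimates above 0 in all 11 tested, though 0 passed the limma test and 2 had an unadjusted p under 0.05 (6.92% of all probe sets). Cdkn1b, which encodes the Cdk inhibitor p27, read between 239.1 and 452.3 on WT arrays and between 429.4 and 741.3 on KO arrays. The ranges overlapped narrowly, and the change was 0.67 ± 0.17 (SE, n = 5 and 6; limma adjusted p = 0.14). Cdkn1a, which encodes p21, had a change of 0.34 ± 0.15 (SE; limma adjusted p = 0.654, n = 5 and 6).

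Markers of the basal cells were measured on the same arrays. Of the globose basal cell markers, 7 were tested, 5 had estimates above 0 with a median of 0.063, and 0 passed the limma test, with 1 at an unadjusted p under 0.05 (6.92% of all probe sets). Kit, Lgr5, Sox2 and Ezh2 had changes of 0.17 ± 0.21, 0.14 ± 0.15, 0.063 ± 0.14 and 0.032 ± 0.14 (SE), Hes6 of 0.26 ± 0.12 and Cbx8 of −0.34 ± 0.15. The mean of these markers lay between 9.43 and 9.77 on WT and between 9.29 and 9.85 on KO arrays. All 7 horizontal basal cell markers were tested and 0 passed. Krt5, Krt14 and Trp63 had changes of 0.041 ± 0.17, −0.079 ± 0.18 and 0.068 ± 0.19 (SE), and Krt15 one of −1.22 ± 0.32 (SE; limma adjusted p = 0.134, n = 5 and 6).

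Among the 7 neuronal precursor markers, 2 rose in the KO, both basic helix-loop-helix factors of neurogenesis. Estimates were above 0 in 6 of the 7, with a median of 0.29. In limma 4 had an unadjusted p under 0.05 (6.92% of all probe sets). Nhlh2, Gadd45g, Sox11 and Nhlh1 had changes of 0.93 ± 0.23, 0.29 ± 0.14, 0.23 ± 0.11 and 0.10 ± 0.13 (SE) and did not pass. Ebf2 went the other way, at −0.18 ± 0.13 (SE), and did not pass. At an adjusted p of 0.05 limma called 0.244% of all probe sets higher. Neurog1 read 304.5 to 396.7 on WT and 421.4 to 1051.8 on KO arrays, a change of 0.91 ± 0.19 (SE, n = 5 and 6; limma adjusted p = 0.0364). Neurod1 read 1353.7 to 1615.4 on WT and 1838.9 to 3161.2 on KO arrays, a change of 0.66 ± 0.13 (SE, n = 5 and 6; limma adjusted p = 0.0214). In neither gene did the groups overlap, as in 1.29% of all probe sets, and both genes were named because they passed the test. None of the 42 replication and mitosis genes had groups apart, which is near that share. The mean of the 7 markers stood 0.76 and 0.60 above the WT mean on KO 1 and KO 4, the arrays highest in mitosis genes, and 0.32 and 0.087 above it on KO 2 and KO 3, the lowest. Of all probe sets, 59.8% and 75.0% lay above their WT mean on KO 1 and KO 4, against 42.4% and 35.3% on KO 2 and KO 3.

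Markers of mature OSNs moved with genotype as a list, and their part in the values above was not tested. Of 8 mature OSN markers, 5 fell in the KO and 0 rose, with a median of −0.76. Here and for the lists that follow, limma at an adjusted p of 0.05 called 0.211% of all probe sets lower and 0.244% higher. Stoml3, a stomatin-like protein of OSNs, had a log2 change of −1.21 ± 0.16 (SE, n = 5 and 6; adjusted p = 0.000794 by limma). Their mean lay between 10.2 and 10.6 on WT and between 9.42 and 9.89 on KO arrays. Of 6 sustentacular cell markers 1 fell, Sult1d1, and 2 had estimates above 0. The 8 erythroid markers split evenly, with 4 estimates above 0, 4 below and a median of 0.050. Of these 2 rose, the embryonic globins Hbb-y, with a change of 2.19 ± 0.21 (SE), and Hbb-bh1, whereas Tfrc, Gata1, Hemgn and Klf1 had changes of −0.50 ± 0.19, −0.24 ± 0.22, −0.16 ± 0.27 and −0.067 ± 0.19 and did not pass. Of the markers of immature OSNs (10 tested), leukocytes (9), endothelium (7), cartilage and connective tissue (13) and ensheathing glia (6), 0 passed, with medians of 0.062, 0.21, 0.15, 0.12 and 0.48. The limma test at an unadjusted p of 0.05 gave 2, 0, 0, 2 and 3 genes in these 5 lists, against 6.92% of all probe sets.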

How the data were processed

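RNA of 11 whole MOE preparations was measured on Affymetrix Mouse Genome arrays, 1 array each. The deposited values are intensities on a linear scale, and per the study's methods the authors used the GeneChip operating software (version not given in the sources used here) to scale every array by GAPDH. In the deposited file the GAPDH probe set reads 10000 on every array, so a GAPDH difference between groups would move every other value. The platform annotation gave 1 symbol for 34958 of the 45101 probe sets, several for 932 and none for 9211. The 64 control probe sets and those with a mean intensity under 20 were left out, which left 33662.

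Intensities were used as log2(signal + 16), which understates changes of dim probe sets. The KO was set against WT with limma 3.58.1 under R 4.3.3, using lmFit and then eBayes with an intensity trend, without covariates. Benjamini-Hochberg adjustment ran over all probe sets tested, with a threshold of 0.05. Each gene was taken from the brightest of its tested probe sets. Precision is limited by the number of arrays, and the p-values reflect only how far preparations differed. The genes, the other lists and the tests were chosen with earlier results of these data known. Every gene has its change given or ranged; signals (each WT array, and the lowest, median and highest KO array) are given for the 4 genes of smallest p in each group and for Pcna, Mcm2, Mki67, Top2a and Cdk1, and in other lists the genes past the threshold and the 2 of smallest p were those eligible by rule, with further markers named after their values were seen. Group means, motif shares and spreads were described without a test. Alternatives covered scaling, pseudocount (1 and 64), filter (none and a mean of 100), trend, array weights, sex, poly-A controls, GAPDH ratio, replicate block, averaging of probe sets and leaving out each array. Same-numbered WT and KO arrays were not treated as paired, and the 5 correlations of their deviations ran from −0.28 to 0.0085. Such correlations cannot show whether arrays shared a litter or day of dissection, which the labels did not give.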

Additional observations from a re-analysis of the deposited data

Results flagged for a closer look

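Of 90 sets of arrays examined, the WT or the KO arrays for each of 42 genes, for both group means and for their difference, 4 held 1 array far from the others of its group by Dixon's criterion, a rate close to the 1 in 20 that chance gives. Mcm7 stood 0.48 below the KO median on KO 2 (log2 difference −0.48), with a signal of 2367.0 against 3218.6 to 3861.0 on the other KO arrays. Bub1b was also low on KO 2, at −0.54 from the KO median, with a signal of 520.7 against 757.7 to 910.4. Bub3 was low on KO 3, at −0.54 from the KO median, with a signal of 2842.3 against 3986.6 to 4612.1. Aurka was low on WT 4, at −0.33 from the WT median, with a signal of 338.2 against 424.4 to 437.7 on the other WT arrays.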

How the results depend on the processing

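Across 29 alternatives, 3 of them chosen after seeing the data, 0 of the 42 genes passed the adjusted threshold in limma, and the lowest adjusted p in any was 0.143. The mean change of the mitosis genes moved to −0.099 and that of the replication genes to −0.058 under hybridization control scaling, where 7 of the 12 genes whose signals are given changed sign. The cause was not tested. Leaving out 1 array at a time gave 0.051 (without KO 4) to 0.23 (without KO 2) for replication genes and 0.046 to 0.16 for mitosis genes. Their difference ran from −0.0058 (without KO 6) to 0.092 (without KO 5), with 30 to 39 estimates above 0. At most 4 genes had an unadjusted p under 0.05 in limma, without KO 2. In that setting limma called 127 of all probe sets higher and 85 lower at an adjusted p of 0.05, against 82 and 71 with every array. Their share at an unadjusted p of 0.05 is not given there, so nothing is read from the count of 4. The genes at an unadjusted p of 0.05 in limma numbered 9 with array weights, which gave changes of 0.21 and 0.17. Calls over all probe sets at an adjusted p of 0.05 rose as well, from 82 higher and 71 lower to 225 and 120. The share of all probe sets at an unadjusted p of 0.05 is not given for this setting. Without that share the count of 9 is not read as a result about these genes. Samples were not treated as paired by their replicate numbers. With the replicate number as a block, which leaves KO 6 without a partner, the changes were 0.082 for replication genes and 0.088 for mitosis genes. Their difference was −0.0058, and limma called 0 genes at an adjusted p of 0.05 and 1 at an unadjusted p of 0.05. Over all probe sets the adjusted threshold then gave 62 higher and 29 lower. Their share at the unadjusted threshold is not given with the block either, so nothing is read from the count of 1. The number of arrays limits what could be called, and Tyms was too dim to pass a minimum mean signal of 100.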
